A study of Rattus norvegicus with 48 samples.

Results

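The miR-29 family of the rat comprises the mature miRNAs rno-miR-29a-3p, rno-miR-29b-3p and rno-miR-29c-3p, written here as miR-29a, miR-29b and miR-29c. They were taken by name from the read counts of every library, and make up 3 of the 763 mature miRNAs listed. Small RNA was sequenced in 32 serum and 16 ulna bone libraries, one per sample, to compare diabetic with non-diabetic rats and treated with placebo rats. ZDF rats are homozygous (fa/fa) for a leptin receptor mutation and become diabetic spontaneously, and the WT rats were their lean Zucker relatives (ZDF +/+). Per the study's methods, the rats ate a chow rich in fat and carbohydrate for 12 weeks from an age of 11 weeks. All rats were male, and in all of them, placebo rats included, a subcritical defect was cut in the femur at an age of 11 weeks before 12 weeks of treatment. PTH (parathyroid hormone) was given at 75 µg/kg on 5 days a week, an anti-sclerostin antibody at 25 mg/kg 2 times a week and insulin at 0.5 to 13 IU. The 7 serum groups held 5 rats on placebo and 5 on PTH in each genotype, 4 on anti-sclerostin in each genotype, and 4 ZDF rats on insulin. The 4 bone groups, WT and ZDF on placebo or PTH, held 4 rats each. WT rats on insulin, and bone of rats on anti-sclerostin or insulin, were not analysed here.

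A miRNA guides a protein complex to messenger RNAs that pair with its seed, bases 2 to 8, and lowers their translation or stability. The miR-29 family is known above all for repressing collagens and other extracellular matrix genes, and in bone-forming cells also inhibitors of Wnt signalling, the pathway that sclerostin blocks. The members share their seed, so they are thought to act on largely the same messenger RNAs, while they differ towards the 3′ end.

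The mature sequences are shown because the members are told apart in the reads by these few bases alone. They are RefSeq sequences of the GRCr8 assembly, 5′ to 3′, with the seed in capitals.
rno-miR-29a-3p: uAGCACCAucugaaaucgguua
rno-miR-29b-3p: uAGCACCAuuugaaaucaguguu
rno-miR-29c-3p: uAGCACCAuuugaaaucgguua
Of the 763 listed miRNAs, 686 were matched to a RefSeq mature sequence, and 3 of these carried the seed AGCACCA, which are the family itself. With positions counted from the 5′ end, miR-29c differed from miR-29a by C10U alone, 1 of 22 bases. From miR-29a to miR-29b there were 4 differences over the first 22 bases (C10U, G18A, U21G and A22U) and 1 further base at the end. From miR-29b to miR-29c there were 3 (A18G, G21U and U22A). The authors allowed 1 mismatch when they mapped reads to miRBase, so even an error-free read of miR-29a could also match miR-29c, or the reverse. The study's methods do not say how such reads were assigned. The split of reads between these members is uncertain to that extent.

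The family is encoded by 2 pairs of hairpins. Mir29a lies on the minus strand with its mature arm at chr4:60617968-60617989, and Mir29b1, on the same strand, carries mature miR-29b at chr4:60618342-60618364. Mir29b2 on the plus strand carries the same mature miR-29b at chr13:109098882-109098904, and Mir29c follows it with its mature arm at chr13:109099412-109099433. The gap between the hairpins is 291 bases on chromosome 4 and 447 bases on chromosome 13. The hairpins of miR-29b are printed because they differ outside the mature arm, here in capitals, and are identical within it.
Mir29b1 (chr4:60618334-60618414, minus strand): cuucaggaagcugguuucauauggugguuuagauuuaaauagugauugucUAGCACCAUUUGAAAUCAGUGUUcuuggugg
Mir29b2 (chr13:109098831-109098911, plus strand): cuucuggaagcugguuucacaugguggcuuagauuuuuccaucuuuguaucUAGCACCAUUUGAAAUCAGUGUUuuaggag
A read of mature miR-29b therefore cannot be assigned to either locus. A read of miR-29a comes from chromosome 4 and a read of miR-29c from chromosome 13, within the limit given above.

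Levels are reads scaled to 1000000 miRNA reads (CPM) after TMM normalization over the libraries of one tissue. A miRNA read covers the whole mature molecule, so no correction for length was made. In serum, miR-29a was the 9th most abundant miRNA, with a mean of 35203 CPM, miR-29c was 23rd with 9122 CPM and miR-29b 104th with 367 CPM. In bone the order was the same, with miR-29a 10th at 29268 CPM, miR-29c 19th at 12687 CPM and miR-29b 110th at 436 CPM. Together the members took 4.63% of the miRNA reads of a serum library on average (1.31% to 9.51%) and 4.36% of those of a bone library (1.82% to 7.20%). The lowest shares in serum belonged to the insulin group, at 1.97% ± 0.748 (SD, n = 4).

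The depth behind these levels differed widely between members. Serum libraries held 28015 to 205664 miRNA reads and bone libraries 41627 to 1398702. A serum library contained 919 to 7395 reads of miR-29a and 180 to 2707 of miR-29c, but 6 to 102 of miR-29b, with a median of 25.5. Counting error therefore weighs on miR-29b in serum far more than on the other members. Reads of the opposite arms were rare. Arm miR-29a-5p had 29 reads in all sera together, with 0 in 13 of 32 libraries, and 1 to 51 reads in each bone library. In all sera, miR-29b-5p had 29 reads, miR-29c-5p 16 and miR-29b-1-5p 0, so no difference in these arms was detectable at this depth.

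Marker miRNAs of other cell types set the tissues apart. The 7 erythrocyte miRNAs took 17.6% to 52.0% of miRNA reads in serum and 2.39% to 5.41% in bone. The striated muscle miRNAs took 5.34% to 34.1% in the bones and 0.014% to 4.72% in serum, so the bone samples contained muscle miRNAs throughout. Markers of mesenchyme and cartilage took 2.67% to 7.71% in bone and 1.63% to 5.07% in serum, and the liver miRNAs had no read in 9 of the 16 bone libraries. In such bulk samples, fewer cells of a type and less RNA per cell cannot be told apart.

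Across the 7 serum groups, the mean of miR-29a was highest in ZDF rats on anti-sclerostin, 46465 ± 10179 CPM (SD, n = 4), and lowest in ZDF rats on insulin, 17940 ± 4420 CPM (SD, n = 4), a ratio of 2.59. Between these lay WT PTH with 40534 ± 7470, WT anti-sclerostin with 39467 ± 4756, ZDF PTH with 35675 ± 7825, WT placebo with 33491 ± 6335 and ZDF placebo with 32501 ± 4381 CPM. In this order each group overlapped with its neighbour, except that all insulin libraries lay below all ZDF placebo libraries. For miR-29b, the highest and lowest serum groups were again ZDF anti-sclerostin, 652 ± 269 CPM (SD, n = 4), and ZDF insulin, 225 ± 112 CPM (SD, n = 4), and the remaining means fell between 323 and 379 CPM. For miR-29c they were WT PTH, 12184 ± 6735 CPM (SD, n = 5), and ZDF insulin, 5360 ± 1788 CPM (SD, n = 4). All neighbouring groups overlapped in miR-29b and in miR-29c. Insulin-treated ZDF rats thus had the lowest mean of each member in serum.

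**Figure D1:**
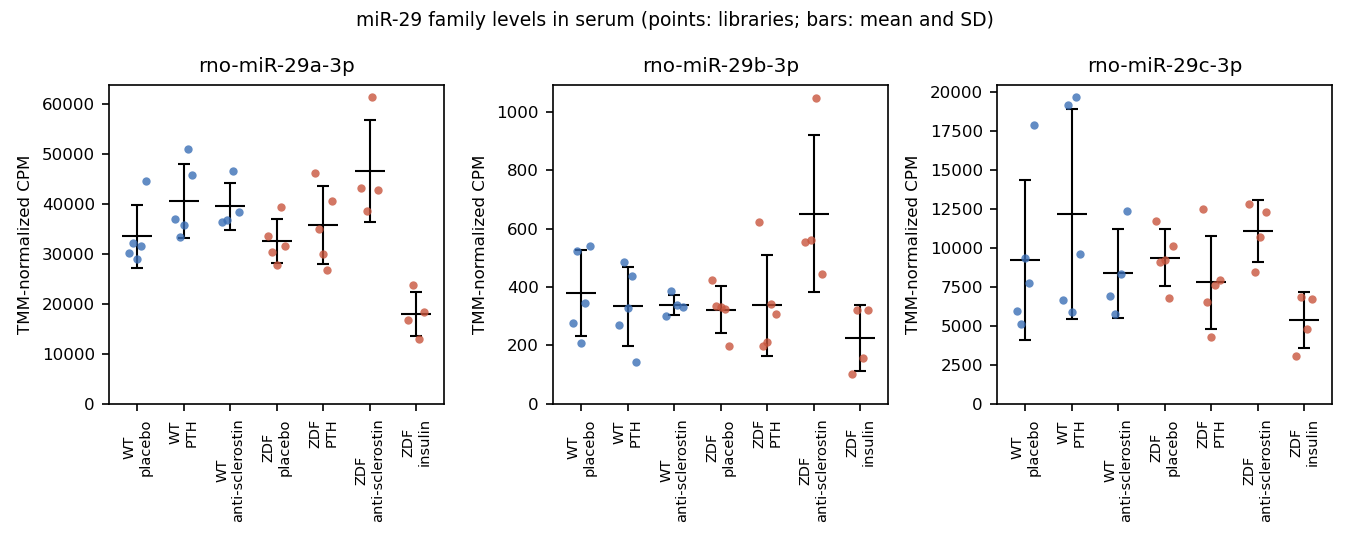
TMM-normalized CPM of the 3 members in the 7 serum groups, with WT rats in blue, ZDF rats in red, a point per library, and bars for the mean and SD. The 4 insulin libraries form the lowest group in each panel, and the 4 libraries of ZDF rats on anti-sclerostin are the highest group for miR-29a and miR-29b.

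Each difference was tested in a quasi-likelihood fit of edgeR over all miRNAs that held only the groups compared, and a miRNA was called at a false discovery rate (FDR, Benjamini-Hochberg) under 0.2. Fold changes are on the log2 scale, with the standard error (SE). Over 19 comparisons, 57 tests of a member gave 5 calls, in 4 comparisons. In the 15 comparisons without a call, 2 of the members had an unadjusted p under 0.05 and DESeq2 called 1. Per the study's methods, the ulnae were taken from rats whose serum was also sequenced, apart from some of the ZDF PTH group. Which samples share a rat is not in the labels, so tests from serum to bone treat samples of the same rats as independent, and their p-values ignore that sharing.

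Insulin was compared with placebo in ZDF rats, and miR-29a and miR-29c were lower in the serum of the treated rats. In serum of placebo-treated ZDF rats, miR-29a was at 33612, 30423, 27668, 39341 and 31459 CPM. In insulin-treated ZDF rats it was at 16694, 23648, 13015 and 18404 CPM. The groups did not overlap, and every insulin library was below the lowest placebo library. The difference was -0.87 (SE 0.25, FDR = 0.0646), 0.548 times the placebo level, with an interval of 2 SE from -1.36 to -0.37. It was called with any one library left out.

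For miR-29c the placebo libraries had 11746, 9081, 9189, 6774 and 10099 CPM and the insulin libraries 3079, 6878, 4796 and 6689 CPM. The groups overlapped by 1 library on each side. The difference of -0.84 (SE 0.28, FDR = 0.0815) amounted to 0.558 times the placebo level. The call for miR-29c was lost without insulin replicate 1 (-0.63, FDR = 0.281) or insulin replicate 3 (-0.72, FDR = 0.245). For miR-29b, the placebo libraries had 425, 334, 332, 326 and 197 CPM and the insulin libraries 103, 321, 158 and 320 CPM, on 6 to 23 reads per insulin library. Its difference of -0.55 (SE 0.40, FDR = 0.417) did not pass.

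These calls stood against many others. Of 151 miRNAs tested between insulin and placebo, 26.5% were called, 15.2% as lower, and 3.31% were both lower and without overlap between the groups. The members' 2 calls are to be read against the first of these shares.

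Red cell miRNAs moved with the insulin group. All 7 erythrocyte miRNAs were tested, 5 were called higher and 0 lower, with a median difference of 0.85 beside -0.10 over all miRNAs tested. They took 41.5% to 52.0% of miRNA reads in the insulin libraries and 26.9% to 36.6% in the ZDF placebo libraries. A common measure of hemolysis in serum, the reads of the erythrocyte miRNA miR-451-5p relative to miR-23a-3p on the log2 scale, was 3.50, 3.18, 3.6 and 3.79 under insulin and 1.2, 0.73, 1.41, 0.55 and -0.49 under placebo, without overlap. With this ratio as a covariate, the differences were -0.53 for miR-29a (SE 0.71, FDR = 0.876) and -0.91 for miR-29c (SE 0.79, FDR = 0.831) and neither was called, while the ratio and the treatment coincide in these libraries. With the 7 erythrocyte miRNAs removed before normalization, miR-29a was at -0.80 (FDR = 0.0997) and miR-29c at -0.74 (FDR = 0.131), both still called. Both liver miRNAs were called lower, as were 1 of 4 leukocyte miRNAs tested, 0 of 1 of striated muscle and 0 of 5 of mesenchyme and cartilage, of which 1 was called higher.

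A high hemolysis ratio also occurred outside the insulin group. In 3 libraries of other groups it was at least as high as the lowest of the 4 insulin values, namely WT placebo replicates 3 and 5 (3.24 and 3.3) and ZDF PTH replicate 3 (4.29). In these, miR-29a was at 29009, 44618 and 30022 CPM, above all 4 insulin libraries in each case. For miR-29c the values were 9338, 17886 and 4312 CPM, so that the first 2 lay above all insulin libraries and the third within their range. For miR-29b they were 209, 542 and 212 CPM, with only the second above all insulin libraries and the others within their range. The 3 libraries also differ from the insulin group in genotype or treatment.

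The insulin difference was not seen on a scale that does not depend on the other miRNAs. Synthetic RNAs were added at extraction, and a serum library held 51220 to 1008421 reads of them. The insulin libraries had 123525 to 299698 and the ZDF placebo libraries 307319 to 574298, without overlap, while their miRNA reads ranged alike, from 60344 to 113163 and from 48637 to 124422. Per 1000 of these control reads, miR-29a was at 6.92, 13.7, 3.58 and 4.67 reads under insulin and at 5.85, 4.60, 11.4, 8.45 and 3.67 reads under placebo. The mean log2 ratios differed by 0.02 (SE 0.51, exact two-sided permutation p = 0.968). With control reads as library size, edgeR gave 0.09 for miR-29a (SE 0.56, FDR = 0.914), 0.30 for miR-29b (SE 0.64) and 0.07 for miR-29c (SE 0.57). In that fit 27 of 139 miRNAs tested were called, all higher, with a median of 0.72 over all miRNAs. Over the settings listed in the closing section, single libraries left out included, the FDR of miR-29a ranged from 0.0291 to 0.914. Relative to the other miRNAs of the library, miR-29a and miR-29c were lower under insulin. Relative to the added controls no difference was detected, but the SE on that scale is too wide to exclude differences of that size.

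**Figure D2:**
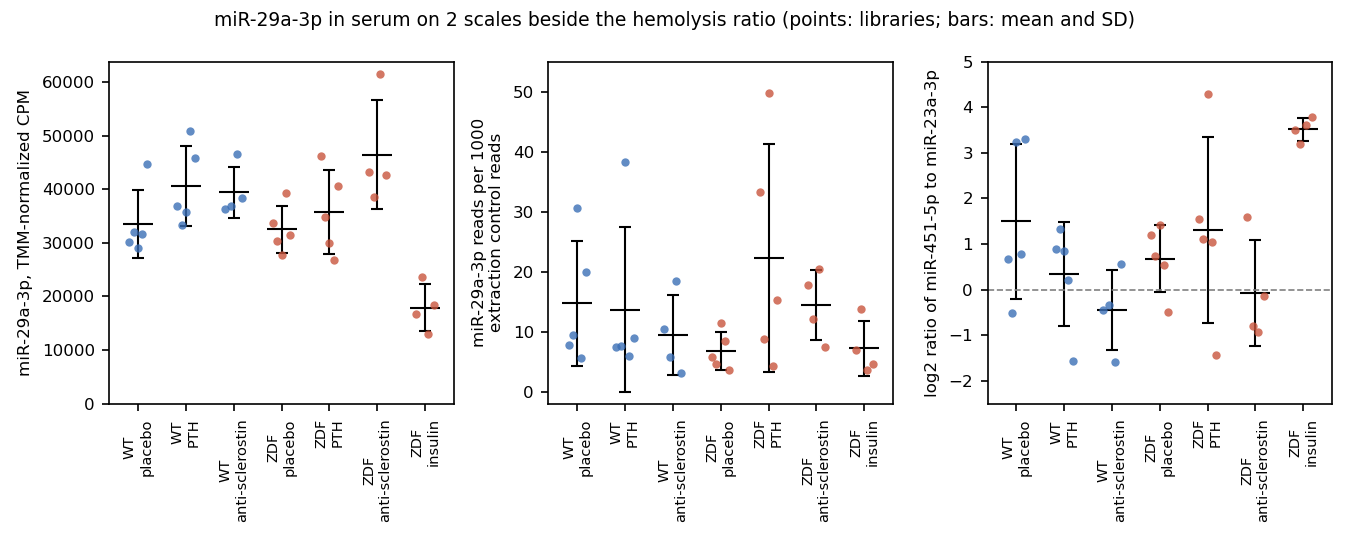
Level of miR-29a in the 7 serum groups as TMM-normalized CPM (left) and as reads per 1000 extraction control reads (middle), and miR-451-5p relative to miR-23a-3p as a log2 ratio (right), with a point per library, WT in blue, ZDF in red, and bars for the mean and SD. The 4 insulin libraries are lowest on the left, lie among the placebo libraries in the middle, and are at 3.18 to 3.79 on the right.

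Anti-sclerostin, which releases Wnt signalling in bone-forming cells, was compared with placebo in each genotype. In ZDF serum, miR-29b was higher under the antibody. It was at 555, 562, 1048 and 444 CPM in treated rats, on 16, 92, 102 and 18 reads, and at 425, 334, 332, 326 and 197 CPM in placebo rats, on 23, 29, 42, 24 and 11 reads. Every treated library was above every placebo library. The difference was 1.09 (SE 0.36, FDR = 0.198), or 2.12-fold, with an interval of 2 SE from 0.36 to 1.81. Of 130 miRNAs tested, 5.38% were called and 3.08% were called higher, and 2.53% of the 158 miRNAs in the fit were higher in every treated library.

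The call lay close to the threshold. The FDR of miR-29b was 0.0962 with RLE size factors and 0.0828 in DESeq2, but 0.240 without independent filtering, 0.367 without the first filter on low counts, 0.217 with all serum groups in one fit and 0.402 with the hemolysis ratio as a covariate. Leaving out 1 library gave differences of 0.78 to 1.25, and the call was kept only without anti-sclerostin replicate 1 or replicate 4. Without anti-sclerostin replicate 3, whose level was the highest of all sera, the difference was 0.78 (FDR = 0.760). It was lost likewise without anti-sclerostin replicate 2 (1.09, FDR = 0.430), placebo replicate 2 (0.92, FDR = 0.502) or placebo replicate 3 (1.04, FDR = 0.207). Without placebo replicate 1, 4 or 5 (1.2, 1.07 and 0.96), and with library totals (1.08), erythrocyte miRNAs removed (0.92) or extraction controls as library size (1.56), independent filtering removed miR-29b, so that it had no FDR.

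The other members differed less in the same comparison. For miR-29a the treated ZDF libraries had 43212, 38510, 61400 and 42738 CPM, beside the placebo values given above, and the difference was 0.58 (SE 0.24, FDR = 0.326). With factors from all 32 sera the groups overlapped by 1 library on each side. With factors from the 9 libraries compared, all 4 treated libraries were above all placebo libraries. MiR-29a passed with RLE size factors (FDR = 0.198), with library totals (FDR = 0.194) and in DESeq2 (FDR = 0.118). It passed also without anti-sclerostin replicate 1 (FDR = 0.199) or placebo replicate 4 (FDR = 0.186). For miR-29c the treated libraries had 12832, 8436, 10682 and 12313 CPM, overlapping with placebo, with a difference of 0.29 (SE 0.28, FDR = 0.670).

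The hemolysis ratio did not separate these groups, at 1.60, -0.81, -0.93 and -0.15 in treated ZDF rats, and 0 of 7 erythrocyte miRNAs were called, with a median difference of -0.33. Per extraction control read, miR-29b was higher by 1.58 on the log2 scale (exact two-sided permutation p = 0.0397, 0.381 after adjustment over 24 such tests). For miR-29a the difference on that scale was 1.11 (exact two-sided permutation p = 0.0556) and for miR-29c 0.85 (exact two-sided permutation p = 0.0873). With extraction controls as library size in edgeR, the median over all miRNAs was 0.55, so part of these differences was shared by other miRNAs. Relative to miR-29a plus miR-29c in the same library, miR-29b was at 10.2, 12.0, 14.6 and 8.29 reads per 1000 in treated and at 9.57, 8.60, 9.12, 7.21 and 4.95 reads per 1000 in placebo rats. That ratio differed by 0.52 on the log2 scale, and the groups overlapped (exact two-sided permutation p = 0.0794, 0.318 after adjustment over 32 ratio tests).

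In WT rats no member was called under anti-sclerostin. MiR-29b was at 302, 386, 339 and 333 CPM in treated and at 276, 523, 209, 347 and 542 CPM in placebo rats, a difference of -0.32 (SE 0.43, FDR = 0.703). The differences were 0.06 (SE 0.31) for miR-29a and -0.38 (SE 0.41) for miR-29c, and 3.7% of 108 miRNAs were called. The response of miR-29b was 1.40 higher in ZDF than in WT rats by the interaction term (SE 0.51, interval of 2 SE from 0.38 to 2.43), with an unadjusted p of 0.0121 in edgeR's test over all miRNAs but FDR = 0.822. The interaction was 0.53 (SE 0.34) for miR-29a and 0.69 (SE 0.49) for miR-29c, and 0% of 189 miRNAs passed it, with 4 at an unadjusted p under 0.05 and 0 in DESeq2.

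Among rats on anti-sclerostin, ZDF and WT sera were also compared directly. The miR-29b levels given above did not overlap, with all 4 ZDF libraries above all 4 WT libraries. The difference was 1.08 (SE 0.40, FDR = 0.448), which DESeq2 put at 1.06 and called (FDR = 0.140). Differences of 0.37 (SE 0.29) for miR-29a and 0.57 (SE 0.33) for miR-29c did not pass. Of 117 miRNAs 0.855% were called, and 3.73% of 161 in the fit were higher in every ZDF library.

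On placebo, no member was called between ZDF and WT sera on the TMM scale. In WT placebo rats miR-29a was at 30179, 32043, 29009, 31606 and 44618 CPM, so that the highest library belonged to WT and the other 4 lay inside the ZDF range. The difference between ZDF and WT was -0.13 (SE 0.26, FDR = 0.925) for miR-29a, -0.29 (SE 0.37) for miR-29b and -0.08 (SE 0.36) for miR-29c. Of 164 miRNAs, 6.1% were called. With extraction controls as library size miR-29c was called lower in ZDF rats (-1.18, SE 0.68, FDR = 0.198). In that fit 49 of 113 miRNAs tested were called, 46 of them lower, with a median of -1.03 over all miRNAs. On the TMM scale without WT placebo replicate 5, the signs of miR-29a and miR-29c turned, to 0.08 and 0.39, neither called.

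No member was called under PTH in serum on the TMM scale. Under PTH, miR-29a ranged from 33274 to 50878 CPM in WT and from 26786 to 46123 CPM in ZDF rats, miR-29b from 144 to 486 and from 197 to 625 CPM, and miR-29c from 5897 to 19650 and from 4312 to 12522 CPM. All of these ranges overlapped with placebo. In ZDF rats the differences to placebo were 0.21 (SE 0.28), 0.16 (SE 0.41) and -0.16 (SE 0.33) for miR-29a, miR-29b and miR-29c. With extraction controls as library size these became 1.71 (SE 0.84, FDR = 0.122), 1.5 (SE 0.83, FDR = 0.165) and 1.16 (SE 0.76, FDR = 0.211), so that miR-29a and miR-29b were called higher and the sign of miR-29c turned. In that fit 88 of 154 miRNAs were called, all higher, with a median of 1.42 over all miRNAs. In WT rats the differences to placebo were, on the TMM scale, 0.23 (SE 0.31), -0.18 (SE 0.47) and 0.32 (SE 0.48). EdgeR on the TMM scale called 0% of 154 miRNAs in ZDF and 0% of 170 in WT rats, with 4 and 2 at an unadjusted p under 0.05 and 0 in DESeq2 in both. Between ZDF and WT rats on PTH the differences were -0.20 (SE 0.31), 0.01 (SE 0.49) and -0.65 (SE 0.43), with 0% of 158 miRNAs called, 5 at an unadjusted p under 0.05 and 0 in DESeq2. The interaction of PTH and genotype was -0.10, 0.27 and -0.57, and 0% of 182 miRNAs passed it, with 8 at an unadjusted p under 0.05 and 0 in DESeq2.

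**Figure D3:**
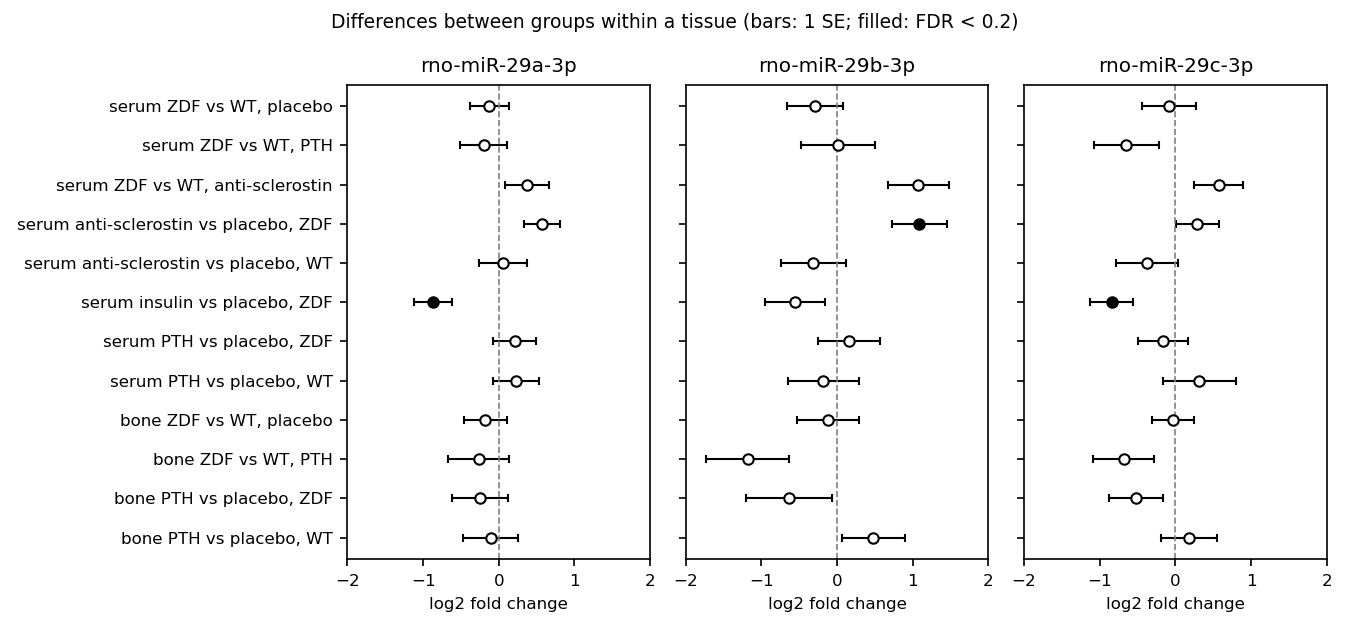
Log2 fold change of each member in the 12 comparisons within a tissue, with bars of 1 SE and filled points where the FDR was under 0.2. The 3 filled points are miR-29a and miR-29c under insulin, below 0, and miR-29b under anti-sclerostin in ZDF serum, above 0.

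In ulna bone, where the matrix targets of the family are made, no member was called between genotypes or treatments. In WT placebo bone miR-29a was at 31788, 38475, 29875 and 31645 CPM and in ZDF placebo bone at 22577, 30608, 41847 and 24266 CPM. The ZDF bones spread more widely and covered the WT range. The difference was -0.18 (SE 0.28, FDR = 0.781) for miR-29a, -0.12 (SE 0.40) for miR-29b and -0.03 (SE 0.28) for miR-29c. Of 135 miRNAs 17% were called in that comparison.

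Under PTH, bone miR-29b had the largest difference between genotypes, and it did not pass. It was at 738, 707, 645 and 310 CPM in WT PTH and at 86.7, 160, 344 and 467 CPM in ZDF PTH bones. In WT, 3 of the 4 bones lay above all ZDF bones, and the fourth lay inside the ZDF range. The difference was -1.18 (SE 0.55, FDR = 0.304), with 7.89% of 114 miRNAs called. Without WT PTH replicate 4 it was called at -1.45 (FDR = 0.152), and without ZDF PTH replicate 4 at -1.67 (FDR = 0.149). MiR-29c was at 13510, 6835, 21889 and 17324 CPM in WT PTH and at 5749, 6448, 9144 and 14940 CPM in ZDF PTH bones, a difference of -0.68 (SE 0.41, FDR = 0.406). It was called without WT PTH replicate 2 (-0.90, FDR = 0.189) or ZDF PTH replicate 4 (-1.11, FDR just under 0.2). MiR-29a, at 30872, 12335, 41728 and 34787 CPM in WT PTH and 15168, 17328, 23295 and 41694 CPM in ZDF PTH bones, differed by -0.26 (SE 0.40). For miR-29a, the lowest WT PTH bone and the highest ZDF PTH bone thus stood apart from the rest of their group. Neither was flagged in the search for outlying libraries in the closing section.

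PTH against placebo gave differences in ZDF bone of -0.25 (SE 0.37), -0.64 (SE 0.57) and -0.52 (SE 0.36) for miR-29a, miR-29b and miR-29c. EdgeR called 0% of 215 miRNAs, with 13 at an unadjusted p under 0.05 and 1 in DESeq2. MiR-29c was called without ZDF PTH replicate 4 (-0.92, FDR = 0.155). In WT bone the differences were -0.11 (SE 0.36), 0.48 (SE 0.42) and 0.18 (SE 0.37), and 16.8% of 179 miRNAs were called. The interaction was -0.15, -1.07 and -0.72 and called no member among the 1.35% of 74 miRNAs that passed. For miR-29b the unadjusted p was 0.134 in edgeR's test, and independent filtering removed it before the FDR was computed.

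**Figure D4:**
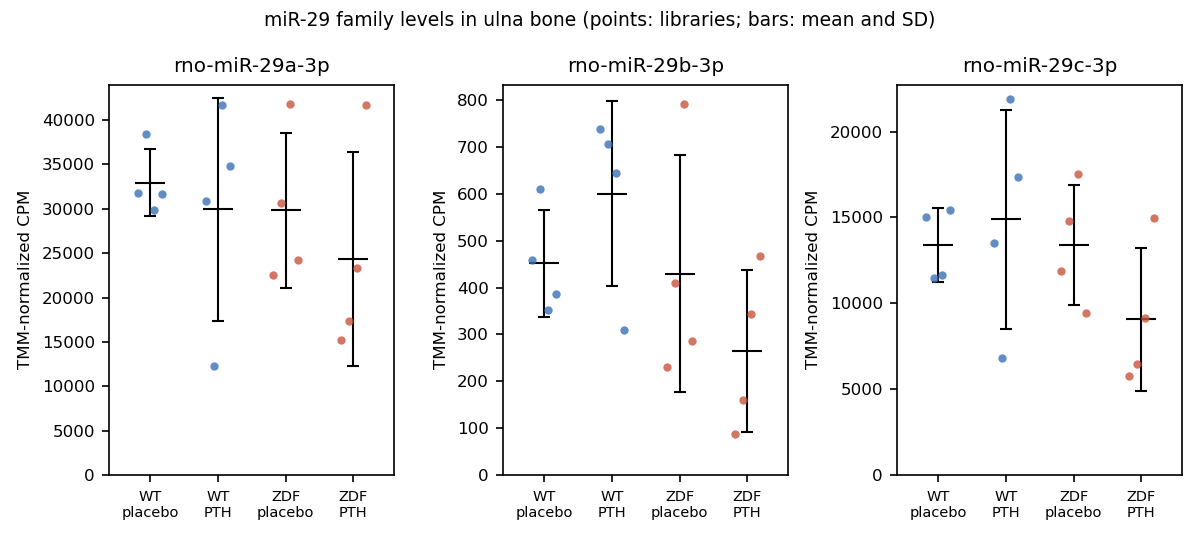
TMM-normalized CPM of the 3 members in the 4 groups of ulna bone, with WT in blue, ZDF in red, a point per library, and bars for the mean and SD. The groups overlap in each panel, and 3 of the 4 bones of WT rats on PTH lie above all 4 bones of ZDF rats on PTH for miR-29b.

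Bone and serum differed in most miRNAs, while few tests of this family passed. Of the miRNAs tested, 80.6% of 222 were called in WT placebo, 86.1% of 202 in ZDF placebo, 79.9% of 184 in WT PTH and 81.6% of 190 in ZDF PTH rats, whereas 2 of the 12 tests of a member were. MiR-29c was higher in bone than in serum of ZDF placebo rats by 0.54 (SE 0.29, FDR = 0.106), where 46% of miRNAs were called higher. It was no longer called without any one of serum replicates 2, 3, 4 and 5 (0.26 to 0.32, FDR = 0.409 to 0.486). MiR-29a was lower in bone than in serum of WT PTH rats by -0.77 (SE 0.50, FDR = 0.168), where 42.4% were called lower, and was not called without bone replicate 1 (-0.59, FDR = 0.373), 2 (-0.40, FDR = 0.378) or 3 (-0.80, FDR = 0.210). With so many miRNAs called, an FDR under 0.2 corresponded to an unadjusted p of 0.0847 and 0.132 in edgeR's test for these 2 calls. Single libraries also brought calls that the full groups did not give. Without serum replicate 5, miR-29c was called in WT placebo (0.64, FDR = 0.138). In ZDF placebo, miR-29b was called without bone replicate 1 (0.83, FDR = 0.0745) or 4 (0.76, FDR = 0.114). In ZDF PTH, miR-29a was called without serum replicate 3 (-0.63, FDR = 0.169) or 4 (-0.67, FDR = 0.166) or bone replicate 4 (-0.80, FDR = 0.0798), and miR-29c without serum replicate 1 (0.68, FDR = 0.112). In the full groups miR-29b differed by 0.01 (SE 0.42), 0.42 (SE 0.42), 0.40 (SE 0.54) and -0.17 (SE 0.56) in WT placebo, ZDF placebo, WT PTH and ZDF PTH rats. Which members were called also depended on the fit. With all groups in one fit, miR-29b was called higher in bone in WT PTH (0.89, FDR = 0.0664) and ZDF placebo (0.64, FDR = 0.184). The same fit called miR-29c higher in ZDF PTH (0.74, FDR = 0.0798) and did not call miR-29a in WT PTH (-0.32, FDR = 0.327).

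The balance of miR-29a to miR-29c, a ratio within a library that needs no scaling, was lower in bone. It was 4.25 ± 1.40 (SD, n = 32) in serum, from 1.74 to 6.95, and 2.36 ± 0.415 (SD, n = 16) in bone, from 1.80 to 3.36. In ZDF placebo rats the ratio was 2.86, 3.35, 3.01, 5.80 and 3.11 in serum and 1.90, 2.07, 2.39 and 2.57 in bone, without overlap. On the log2 scale bone was lower by -0.66 (SE 0.21, exact two-sided permutation p = 0.0079, the smallest that 4 against 5 allows). In ZDF PTH rats the ratio was 3.68, 5.36, 6.95, 3.52 and 5.09 in serum and 2.64, 2.69, 2.55 and 2.79 in bone, again without overlap, a difference of -0.84 (SE 0.18, exact two-sided permutation p = 0.0159). In WT rats the tissues overlapped, with differences of -0.69 (SE 0.29, exact two-sided permutation p = 0.0794) on placebo and -0.91 (SE 0.36, exact two-sided permutation p = 0.0952) on PTH. After adjustment over the 32 ratio tests, the lowest adjusted p of these 4 was 0.254, and 0 of the 32 passed 0.05. The ratio was lower in bone in the mean of all 4 comparisons, and none of them held after adjustment.

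In bone the ratio also differed by genotype under PTH, but only before adjustment. It was 2.28, 1.80, 1.91 and 2.01 in WT PTH and 2.64, 2.69, 2.55 and 2.79 in ZDF PTH bones, without overlap, a difference of 0.42 on the log2 scale (SE 0.08, exact two-sided permutation p = 0.0286, the smallest that 4 against 4 allows, and 0.305 after adjustment). Between placebo bones the difference of ZDF to WT had the other sign, -0.16 (SE 0.19, exact two-sided permutation p = 0.486), and the groups overlapped. The libraries of PTH-treated ZDF bones agreed within a narrow range in this ratio although their levels of miR-29a differed widely. Serum ratios spread more, and at the lowest read numbers, 180 reads of miR-29c in a library, counting error adds to that spread.

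**Figure D5:**
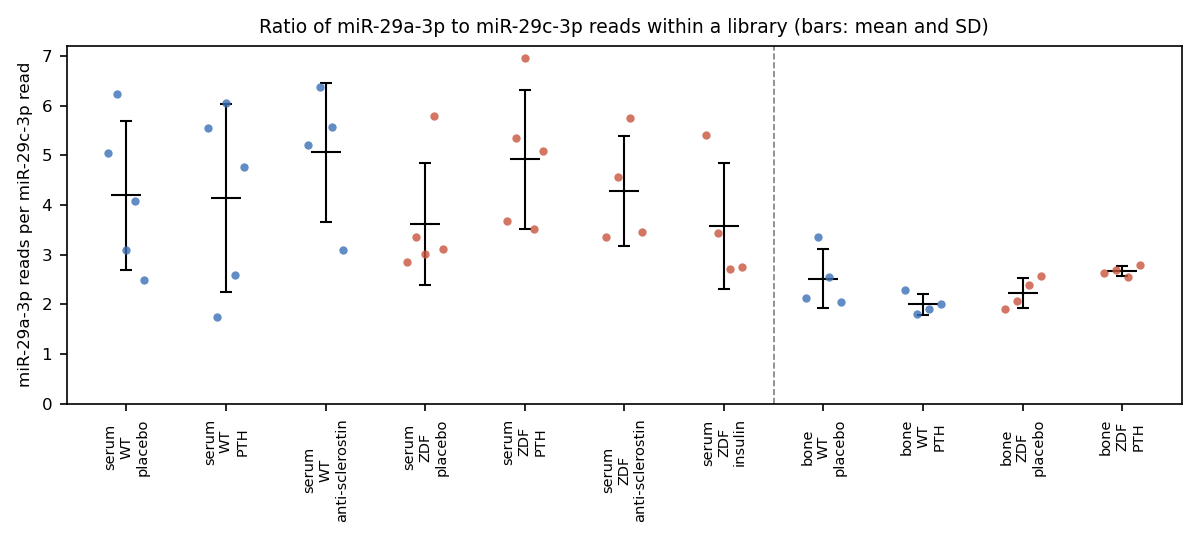
Reads of miR-29a per read of miR-29c in each of the 48 libraries, for 7 serum groups (left of the dashed line) and 4 bone groups (right), with WT in blue, ZDF in red, and bars for the mean and SD. The bone libraries lie between 1.80 and 3.36, in the lower part of the serum range of 1.74 to 6.95.

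The likeness of miR-29a and miR-29c was higher across bones (r = 0.90) than across sera (r = 0.60). That of miR-29b to miR-29a was 0.54 across bones and 0.61 across sera, and to miR-29c 0.60 and 0.57. Over the 16 bone libraries the log2 levels of miR-29a and miR-29c had a Pearson r that was the highest of the 177 miRNAs with a mean of at least 100 CPM for each of them, followed for miR-29a by miR-7a-1-3p (0.84) and miR-324-5p (0.82). For miR-29b in bone the nearest were miR-195-5p (0.73), miR-130a-3p (0.72) and miR-144-3p (0.71), and it was 33rd for miR-29a (0.54) and 17th for miR-29c (0.60). Over the 32 sera, the nearest to miR-29a were miR-193a-3p (0.66), miR-24-3p (0.63) and miR-29b (0.61), and the nearest to miR-29c were miR-22-3p (0.63), miR-29a (0.60) and miR-29b (0.57). These values are descriptions over libraries that share normalization and vary in depth, and the reads that miR-29a and miR-29c may share can raise their r.

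Other miRNAs known from bone formation and matrix, 24 in a list without the family, were called in the comparisons that called a member and in others. Between ZDF and WT placebo sera 2 were called higher and 1 lower of 17 tested, namely miR-31a-5p (1.68, FDR = 0.0262), miR-145-5p (1.07, FDR = 0.110) and miR-199a-3p (-1.82, FDR = 0.0262), with a median of -0.21 beside -0.09 over all miRNAs tested. Of all miRNAs, 6.1% were called in that comparison. Under insulin 0 were called higher and 2 lower of 17, miR-31a-5p (-1.82, FDR = 0.0616) and miR-21-5p (-0.82, FDR = 0.0646), with a median of -0.38 beside -0.10. Under anti-sclerostin in ZDF serum 2 were called higher, miR-138-5p (1.29) and miR-24-3p (1.11), and 2 lower, miR-143-3p (-2.53) and miR-145-5p (-1.38), of 15 tested. In WT serum under anti-sclerostin 0 were called higher and 2 lower of 14, miR-143-3p (-1.29) and miR-199a-3p (-2.03). Of all miRNAs tested under anti-sclerostin, 5.38% were called in ZDF serum and 3.7% in WT serum. The 2 lower calls under insulin stand beside 15.2% of all miRNAs called lower in that comparison, a share above that of the list.

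In bone the list had calls in comparisons where no member had one. Between ZDF and WT placebo bones 1 was called higher, the muscle miRNA miR-206-3p (1.16), and 3 lower of 18 tested, miR-214-3p (-2.14), miR-125b-5p (-1.33) and miR-199a-3p (-1.10), beside 17% of all miRNAs called. Under PTH, ZDF bones had 1 higher of 16, the muscle miRNA miR-133a-3p (1.3, FDR = 0.0188), beside 7.89% of all miRNAs. PTH against placebo in WT bone gave 1 higher and 5 lower of 20 tested, beside 16.8% of all miRNAs called, with a median of -0.53 beside -0.06 over all miRNAs tested, and the lowest FDR among them belonged to miR-133a-3p (-1.83), miR-31a-5p (-2.07), miR-214-3p (-1.85) and miR-125b-5p (-1.32). The part of muscle RNA in these values was not tested. From serum to bone 8 to 13 members of the list were called higher and 4 to 6 lower of 18 to 22 tested, depending on the group. Of all miRNAs tested from serum to bone, 79.9% to 86.1% were called.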

How the data were processed

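Small RNA libraries were made by the submitters from serum and ulna bone. Per the study's methods, the authors trimmed adapters with cutadapt, retained reads of 17 nt or longer, and mapped them with Bowtie and miRDeep2 to Rnor 6.0 (up to 2 mismatches) and rat miRBase (up to 1). The deposited counts are whole reads per mature miRNA without normalization. The deposited RPM values, scaled by the authors to all reads, served only for library totals, and a column scaled to miRNA reads was not used. Synthetic control RNAs were excluded from miRNA counts. Among 82 replicate pairs the lowest chi-squared per degree of freedom was 12.7, so none agreed within sampling noise.

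Counts were tested with edgeR 4.0.16 in R 4.3.3 (filterByExpr, TMM, glmQLFit and glmQLFTest, FDR < 0.2), with independent filtering on mean CPM over 50 quantiles up to 0.95. DESeq2 1.42.0 was an alternative. Ratios within a library were compared by exact permutation on log2(reads + 0.5), adjusted by Benjamini-Hochberg. Independent filtering took the quantile that gave the most calls. The scripts were tested on data simulated from the placebo groups of each tissue. With 200 miRNAs changed by 2 on the log2 scale, 11.5% of calls in serum and 12.5% in bone were false. With no miRNA changed, 5 of 10 serum runs and 7 of 10 bone runs still gave a call. The alternatives tried are given in the closing section. P-values measure the spread between the samples as labelled.

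The members and lists were chosen with earlier results of these data known. Named were the 3 members and their opposite arms, the 3 miRNAs most correlated with each member per tissue, up to 4 called list miRNAs per comparison, and the hemolysis pair. Genotype and treatment came from the labels, and doses and age from the study's methods.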

Additional observations from a re-analysis of the deposited data

Results flagged for a closer look

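Each group of 4 or 5 libraries was searched for a library far from the rest of its group in the level of a member, in its ratio to the others, or in its reads per extraction control. Each measure in each group was 1 search. Of 76 searches 5 flagged a library, and chance flags about 1 in 20. Measures of the same library are related, so these searches are not independent. WT placebo replicate 5 had 44618 CPM of miR-29a in serum, while the other 4 libraries had 29009 to 32043. ZDF placebo replicate 4 had 5.80 reads of miR-29a per read of miR-29c in serum, and the other 4 had 2.86 to 3.35. WT PTH replicate 3 had 38.3 reads of miR-29a per 1000 extraction control reads beside 5.99 to 9.01, and 0.351 reads of miR-29b beside 0.0284 to 0.112. Insulin replicate 2 had 3.99 reads of miR-29c per 1000 extraction control reads beside 1.28 to 1.70.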

How the results depend on the processing

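Settings changed one at a time were RLE size factors, library totals, no filterByExpr, no independent filtering, DESeq2, all groups of a tissue in one fit, removal of erythrocyte miRNAs, the hemolysis ratio as a covariate, extraction controls as library size (the last 3 in serum only), a pseudocount of 1 read for ratios, and each library left out. The depth of miR-29b, 6 to 102 reads in serum, limits its comparisons most. No paired analysis was possible because the labels share no replicate numbers between groups and do not say which bone and serum came from one rat, although most bones had a serum of the same rat. Bone held too few extraction control reads (2 to 65) for that scale. The cause of the changes below was not tested.

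With extraction controls as library size the sign turned for miR-29a, miR-29b and miR-29c under insulin (0.0884, 0.30 and 0.0736), for miR-29a (0.70) and miR-29c (0.44) between ZDF and WT on PTH, for miR-29a under anti-sclerostin in WT (-0.64), for miR-29c under PTH in ZDF (1.16), and for miR-29a (-0.11) and miR-29c (-0.46) under PTH in WT. With all groups in one fit it turned for miR-29c between ZDF and WT placebo in serum (0.0253) and in bone (0.000818), and from serum to bone for miR-29a in ZDF placebo (0.14), miR-29c in WT PTH (0.39) and miR-29b in ZDF PTH (0.18). With library totals it turned for miR-29b between ZDF and WT sera on PTH (-0.00508), miR-29c between placebo bones (0.0234) and miR-29c from serum to bone in WT PTH (0.25). With the hemolysis covariate it turned for miR-29c between placebo sera (0.39) and under anti-sclerostin in WT (0.54) and for miR-29b between ZDF and WT on PTH (-0.0475), and without filterByExpr for miR-29a from serum to bone in ZDF placebo (0.10).

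The number of members called under anti-sclerostin in ZDF serum, 1, became 2 with RLE and DESeq2 and 0 with no filterByExpr, no independent filtering, all groups in one fit, no erythrocyte miRNAs, the hemolysis covariate or extraction controls. It stayed 1 with library totals, where miR-29a passed and independent filtering removed miR-29b, as it also did with erythrocyte miRNAs removed and with extraction controls. Under insulin, 2 became 1 with all groups in one fit and 0 with the hemolysis covariate or extraction controls. With extraction controls 1 member was called between placebo sera and 2 under PTH in ZDF serum, beside 49 of 113 and 88 of 154 miRNAs called. DESeq2 called 1 between ZDF and WT on anti-sclerostin. From serum to bone, ZDF placebo had 2 with all groups in one fit, WT PTH 0 with library totals, and ZDF PTH 1 with either. In WT PTH the count stayed 1 with all groups in one fit, with miR-29b called in place of miR-29a.

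Leaving out each library in turn gave 0 to 2 calls under anti-sclerostin in ZDF serum, 1 to 2 under insulin, 0 to 2 between bones on PTH, 0 to 1 under PTH in ZDF bone, and from serum to bone 0 to 1 in WT placebo, 0 to 2 in ZDF placebo, 0 to 1 in WT PTH and 0 to 1 in ZDF PTH. Differences whose sign turned ranged between placebo sera from -0.14 to 0.0840 (miR-29a) and -0.14 to 0.39 (miR-29c), between sera on PTH from -0.36 to 0.22 (miR-29b), under anti-sclerostin in WT from -0.49 to 0.13 (miR-29c), under PTH from -0.28 to 0.35 (miR-29b, ZDF), -0.52 to 0.0468 (miR-29c, ZDF) and -0.30 to 0.14 (miR-29b, WT), between placebo bones from -0.61 to 0.0560 (miR-29b) and -0.22 to 0.0519 (miR-29c), and under PTH in WT bone from -0.23 to 0.15 (miR-29a). From serum to bone they ranged from -0.16 to 0.18 (miR-29b) and -0.0620 to 0.64 (miR-29c) in WT placebo, -0.39 to 0.24 (miR-29a) in ZDF placebo, -0.30 to 0.29 (miR-29c) in WT PTH and -0.67 to 0.22 (miR-29b) in ZDF PTH. The interactions of miR-29a ranged from -0.24 to 0.0894 (serum PTH) and -0.44 to 0.17 (bone PTH), and per extraction control read the insulin differences from -0.36 to 0.29 (miR-29a), -0.15 to 0.58 (miR-29b) and -0.33 to 0.31 (miR-29c).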
